A study of Mus musculus with 6 samples.

Results

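Interferon response and innate sensing genes are the genes by which a cell detects foreign nucleic acid, answers interferons and displays peptides to T cells. A list of 39 of them was taken by symbol from the 49671 genes counted, and all 39 were found: 4 sensors, 10 receptors and signalling factors, 17 interferon targets and 8 genes of antigen presentation. Of these, 35 passed the filter on low counts, as did 15355 genes in all. The cells were induced renal epithelial cells (iRECs), fibroblasts reprogrammed into tubule-like cells, of the mouse strain B6.129S4-Pkd1tm2Ggg/J with a floxed Pkd1 gene, kept in medium with serum and grown to confluence. For clones 4, 7 and 21, a culture given Cre recombinase and labelled Pkd1 knockout (Pkd1 -/-) was compared with a culture of the same clone given Flp recombinase and labelled Pkd1 wild type (Pkd1 fl/fl). That makes 6 libraries of total RNA, 3 per group, and the labels name no interferon or nucleic acid treatment in either. Each clone gave 1 pair of cultures, and since the labels do not tie the clones to separate animals, a p-value here speaks only of how these 3 pairs scatter.

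Cytosolic sensors such as RIG-I and MDA5 for RNA, and STING downstream of a DNA sensor, switch on interferon regulatory factors and with them interferon genes. Secreted interferons bind receptors on the cell surface, and type I interferon then acts through a complex that holds STAT2 and IRF9 and binds a promoter element called the interferon-stimulated response element (ISRE). The targets include antiviral enzymes and binding proteins, and the transporters, proteasome subunits and class I molecules of antigen presentation. Renal tubule cells carry this machinery and display class I molecules without being immune cells.

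Pkd1, the targeted gene, was at 145, 105 and 118 CPM (read counts relative to a library size scaled by the TMM method) in Cre of clones 4, 7 and 21 and at 199, 229 and 166 CPM in Flp. The Cre value was the lower one in each pair, and the fitted log2 fold change was -0.69 (SE 0.16; edgeR adjusted p 0.607). Reads over the undeleted exons still count, so this checks the labels only in part. Library totals ran from 25196120 to 46918341 counts, so that 0 reads still allow a level of 0.0632 CPM in the deepest and 0.121 CPM in the shallowest library, by counting error alone. Across genes, log CPM of the Flp libraries of clones 7 and 21 was closer to the Cre library of clone 4 (r = 0.983 and 0.979) than to their own partners (r = 0.97 and 0.977). The 10 renal epithelial markers summed to 5290 to 6640 CPM in Cre and 5520 to 6870 CPM in Flp, and none was under 1 CPM. Of 8 fibroblast markers, 6 were under 1 CPM, Thy1 was at 0 in every library, and the sum was 8.95 to 13.9 CPM in Cre and 4.65 to 29.4 CPM in Flp. Macrophage markers summed to 240 to 327 CPM in Cre and 176 to 245 CPM in Flp, mostly Csf1r, while 7 of 10 were under 1 CPM and Adgre1 and Tyrobp were at 0. Cd14 and Cd68 were also present, with means of 1416 and 199 normalized counts in the authors' deposited table, against 6744 for Csf1r. At an unadjusted edgeR p under 0.05, 1 of the 4 macrophage markers tested was higher in Cre and 0 were lower. The shares of all genes were 3.54% and 3.28%. The part of Csf1r-expressing cells in the results was not tested. Lymphoid markers summed to at most 0.606 CPM. Among 5 markers of plasmacytoid dendritic cells, Bst2 was the one above 1 CPM, and Flt3 and Itgax were at 0.

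Some promoters of these genes carry the element that answers type I interferon, and stretches are shown because genes that carry it differed widely in level, as described after them. RefSeq windows of GRCm38.p6, from 250 bases before to 50 after each gene start, matched 30 of the 39 genes. The ISRE core was searched on both strands as GAAA, any 2 bases, GAAA, which reads TTTC, any 2 bases, TTTC on the other strand. It lay in the windows of 9 of the 30 genes, or 30%, and of 3.99% of 27025 genes in the same RefSeq table. Capitals mark the bases covered by a match in the stretches below, each read 5′ to 3′ on the gene's own strand and placed on chr4:156200860-156200911 (-) for Isg15, chr5:120907526-120907560 (-) for Oas1a, chr8:71537572-71537617 (-) for Bst2, chr10:128270261-128270300 (+) for Stat2, chr12:26456548-26456587 (-) for Rsad2, chr19:34583358-34583431 (+) for Ifit3 and chr19:34640770-34640828 (+) for Ifit1.
Isg15: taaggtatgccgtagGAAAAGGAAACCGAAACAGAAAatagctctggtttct
Oas1a: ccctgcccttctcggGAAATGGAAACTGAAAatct
Bst2: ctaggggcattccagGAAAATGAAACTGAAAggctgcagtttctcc
Stat2: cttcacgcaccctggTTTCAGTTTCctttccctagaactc
Rsad2: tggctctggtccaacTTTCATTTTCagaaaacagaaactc
Ifit3: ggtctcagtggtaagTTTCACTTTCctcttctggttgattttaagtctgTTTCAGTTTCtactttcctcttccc
Ifit1: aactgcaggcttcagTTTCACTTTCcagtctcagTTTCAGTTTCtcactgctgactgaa

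Isg15 held 3 overlapping matches, Oas1a and Bst2 held 2 overlapping matches each, and Ifit1 and Ifit3 held 2 separate ones on the strand opposite to the gene. Stat2 and Rsad2 held 1 match each, also on the opposite strand. The other 2 genes with a match were the sensors Ifih1 and Ddx58, where it began 32 and 2 bases after the gene start. By role, a match was found in 2 of 2 sensors, 1 of 10 receptor and signalling genes, 6 of 12 targets and 0 of 6 antigen presentation genes with a window. A second core, TTCNNNGAA, the gamma-activated site bound by STAT dimers and its own reverse complement, lay in 8 of the 30 genes, or 26.7%, and in 9.55% of all genes. Irf1, Ifnar1, Ifnar2, Oas1a, Bst2, Ifi35, Ifit2 and Psmb8 were those 8. A match describes letters only, and a window without one says nothing about the factor.

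Transcript levels, in CPM per kb of annotated exon so that genes can be compared, varied widely among the genes that carry an ISRE core. The 9 genes with a core had a median of 1.62 CPM per kb, from 0.0454 for Ifit1 to 73.6 for Bst2, and the 21 without had a median of 7.21, from 0.00977 for Ifi44 to 119 for H2-K1. Class I heavy chains and Bst2, a membrane tether of budding virions, stood at the top. Receptors and signalling factors lay below these, with Irf3 the highest of them at 33.0 CPM per kb. Irf7, which interferon itself induces, was at 0.587. Of the targets, Rsad2, Usp18, Oasl2, Ifit3, Ifit1, Ifi44, Mx2 and Mx1 were under 1 CPM per kb. The 14 interferon ligand genes listed had 6 reads in all over the 6 libraries: 12 of them were at 0 in every library, and Ifnk, the highest, had a mean of 0.0218 CPM.

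**Figure D1:**
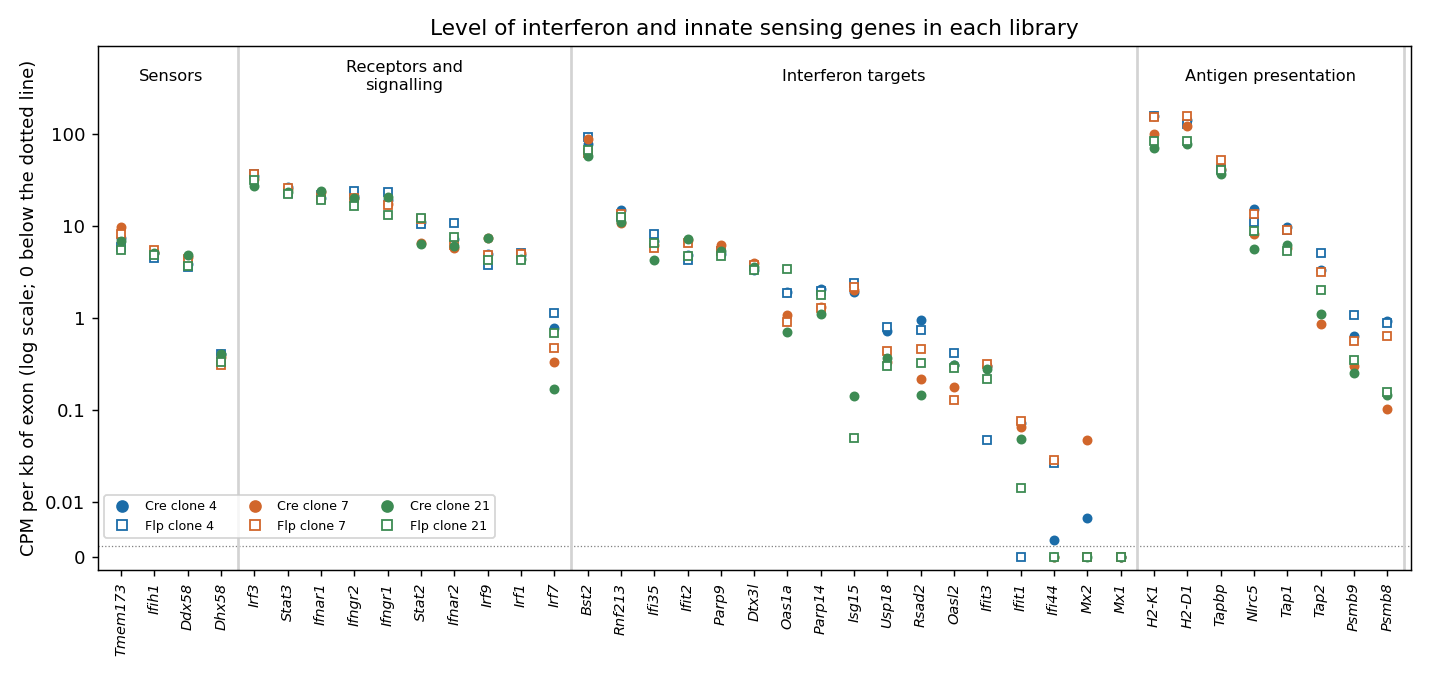
Level of each of the 39 genes in each library, in CPM per kb of exon on a log axis, grouped by role; filled circles are Cre and open squares Flp, colours are clones, and points under the dotted line are at 0. H2-K1, H2-D1 and Bst2 are the highest, Mx1 is at 0 in all 6 libraries, and the Isg15 points of clone 21 lie far under those of clones 4 and 7.

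The main comparison asked whether these genes differed between Cre and Flp when each clone was its own control. With edgeR's quasi-likelihood test and Benjamini-Hochberg adjustment over all genes, 0 of the 35 tested members passed 0.05, and neither did any other gene (0% of those tested). At an unadjusted p under 0.05 there was 1 member with a higher value in Cre, Irf9, against a background of 3.54% of all genes, and there were 2 with a lower value, Tap2 and Stat2, against 3.28%. The Cre value was the higher one in all 3 clones for 4 members (background 14.6%) and the lower one in all 3 for 6 members (background 13.1%). Cre and Flp levels did not overlap for 1 member with Cre on the higher side (background 4.19%) and for 0 with Cre on the lower side (background 3.95%). All of these counts are near what those shares give for 35 genes. With clone 4, 7 or 21 left out, edgeR also called 0 members and 0 genes in all. The median log2 fold change of the members was then -0.06, 0.00 and -0.07. The median fitted log2 fold change was -0.09 over the members and 0.00 over all genes, with medians of the clone ratios of -0.01, -0.06 and 0.03 in clones 4, 7 and 21. By role, the median was 0.19 for the 4 sensors, 0.01 for the 10 receptors and signalling factors and -0.02 for the 13 tested targets. It was -0.29 for the 8 antigen presentation genes, and -0.56, -0.08 and -0.29 without clones 4, 7 and 21.

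**Figure D2:**
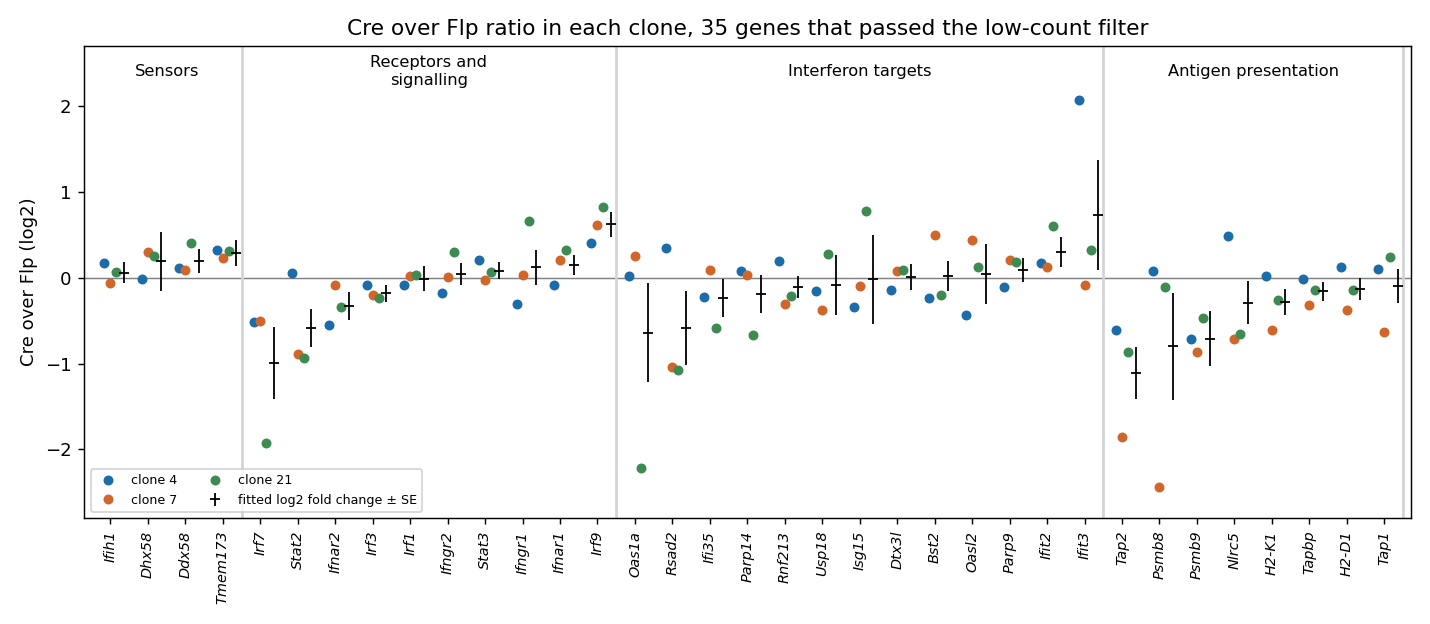
Log2 ratio of Cre over Flp in each clone (coloured points, prior count of 2) and fitted log2 fold change with its standard error (black) for the 35 genes that passed the low-count filter, grouped by role. Irf9 is above 0 and Tap2 below 0 in all 3 clones, while Stat2, Rsad2 and Nlrc5 lie on opposite sides of 0 in clone 4 and in clones 7 and 21.

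Among the sensors, STING (Tmem173, chromosome 18, 35733679 to 35740554, GRCm38), the adaptor of cytosolic DNA sensing, had the highest level per length at 7.23 CPM per kb. It was at 20.3, 26.3 and 18.6 CPM in Cre and 16.2, 22.4 and 15 CPM in Flp of clones 4, 7 and 21. The Cre library was the higher in each clone by a similar ratio, and the groups overlapped because clone 7 was high in both. Its log2 fold change of 0.29 (SE 0.15) had an edgeR adjusted p of 0.813. RIG-I (Ddx58), which binds short RNA with a triphosphate end, also had the higher value in Cre in every clone, at 0.20 (SE 0.14), or 0.09 without clone 21. MDA5 (Ifih1), the sensor of long double-stranded RNA, was at 36.7 to 44.2 CPM in all 6 libraries with a log2 fold change of 0.06. LGP2 (Dhx58), which modulates both, was at 0.994 to 1.33 CPM. All 4 sensors thus had a fitted value above 0, as did 50.7% of all genes, and none passed. Ifih1 in clone 7 and Dhx58 in clone 4 had ratios below 0, of -0.06 and -0.01.

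Irf9 (ENSMUSG00000002325, chromosome 14, 55603571 to 55610030) encodes the DNA-binding part of the complex with STAT2 that binds the ISRE. It was at 26.5, 40.0 and 39.9 CPM in Cre and 20.0, 26.1 and 22.6 CPM in Flp of clones 4, 7 and 21. Every Cre library was above every Flp library, narrowly so for clone 4. The Cre group averaged 35.5 ± 7.75 CPM and the Flp group 22.9 ± 3.09 CPM (SD, n = 3). This gave a log2 fold change of 0.62 (SE 0.14) and an edgeR adjusted p of 0.607. Over the other fits the adjusted p ran from 0.0591 with DESeq2 and the clone block to 1 with edgeR without clone 21. In the authors' deposited table Irf9 stood at a log2 fold change of 0.49 with an adjusted p of 0.0984.

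Genes around Irf9 on distal chromosome 14 had ratios of like size in clones 7 and 21. The 89 genes within 5 Mb on either side with a mean of at least 5 CPM had median log2 ratios of 0.05, 0.92 and 0.78 in clones 4, 7 and 21, where Irf9 had 0.41, 0.61 and 0.82. Irf9 thus lay above the median of its neighbours in clone 4, under it in clone 7 and level with it in clone 21, with differences of 0.36, -0.31 and 0.04. Irf9 was inside the scatter of single neighbours. These ran from -1.23 (Gjb2) to 2.89 (Ripk3) in clone 4 and from -0.18 (Slc7a7) to 1.90 (Gjb2) in clone 7. The median fitted log2 fold change of the neighbours was 0.61, and it was 0.59 over 135 genes within 10 Mb. Beyond 26 Mb on chromosome 14, 295 genes had medians of 0.08, 0.83 and 0.76. Psme1 and Psme2, which encode the interferon-inducible PA28 activator of the proteasome and lie beside Irf9, had clone ratios of -0.05, 1.06 and 0.85 and of 0.10, 1.57 and 0.88. Whether the value of Irf9 is one of its own or of the whole chromosome stretch cannot be told apart in clones 7 and 21. No other tested member had neighbours whose median departed this far: for Stat2, 67 neighbours had medians of -0.10, 0.07 and -0.05, and for Tap2, 134 had -0.10, 0.08 and -0.05.

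**Figure D3:**
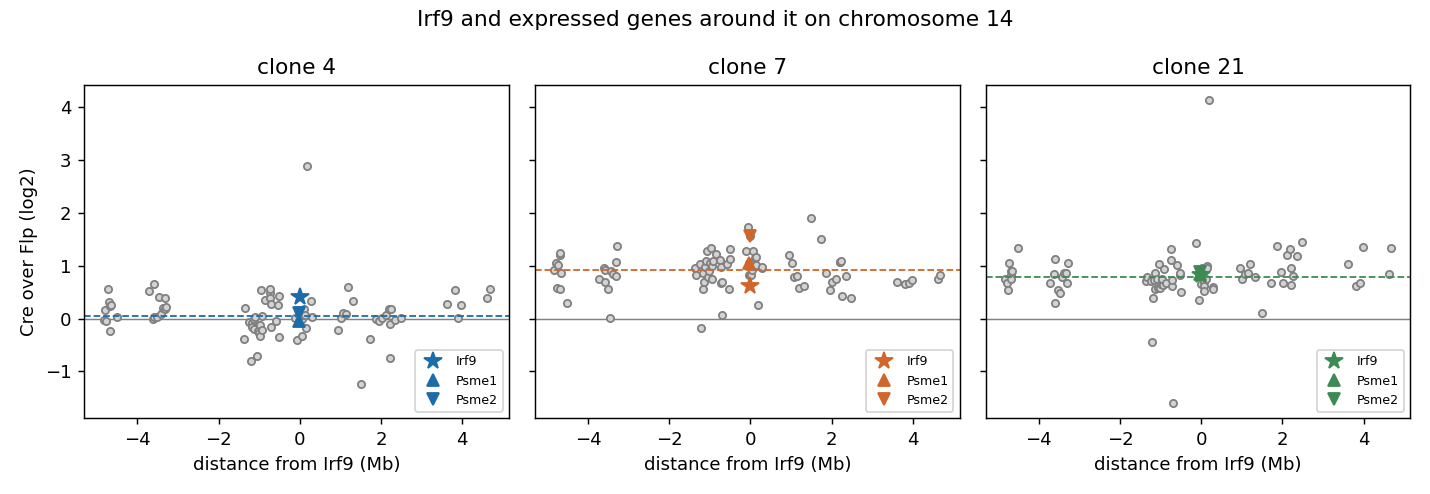
Log2 ratio of Cre over Flp against distance from Irf9 in Mb, 1 panel per clone, for expressed genes within 5 Mb (grey), Irf9 (star) and Psme1 and Psme2 (triangles); the dashed line is the median of the neighbours. In clones 7 and 21 almost all neighbours lie above 0 and the median is 0.92 and 0.78, and in clone 4 it is 0.05.

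Stat2 (ENSMUSG00000040033, chromosome 10, 128270559 to 128292849), the partner of IRF9, was at 64.7, 38.2 and 37.4 CPM in Cre and 62.0, 70.7 and 71.3 CPM in Flp of clones 4, 7 and 21. Cre was well under Flp in clones 7 and 21, and both libraries of clone 4 lay between, so the groups overlapped. The clone ratios were 0.06, -0.89 and -0.93 and the fitted value was -0.59 (SE 0.22; edgeR adjusted p 0.695). Without clone 4 the edgeR log2 fold change was -0.91 with an adjusted p of 0.172. It was -0.43 without clone 7 and -0.41 without clone 21. Stat2 and Irf9 therefore had values on opposite sides in clones 7 and 21.

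Irf7 (chromosome 7, 141262706 to 141266481), the regulatory factor that amplifies interferon production, was at 2.91, 1.23 and 0.632 CPM in Cre and 4.20, 1.76 and 2.55 CPM in Flp of clones 4, 7 and 21. Cre was the lower in each clone, most so in clone 21, and the groups overlapped because clone 4 was high in both. Its log2 fold change of -0.99 (SE 0.42) had an edgeR adjusted p of 0.738, and without clone 21 it was -0.52. Irf3 (chromosome 7, 44997648 to 45002848), the factor that the sensors activate first, was at 118, 110 and 92.4 CPM in Cre and 126, 126 and 109 CPM in Flp. It too was the lower in Cre of each clone, at a log2 fold change of -0.18 (SE 0.10), with overlap between the groups. Ifnar2, a chain of the type I interferon receptor, was the remaining gene of this class with the lower value in Cre of every clone, at -0.33 (SE 0.16). Its partner chain Ifnar1 was at 0.15, the interferon gamma receptor chains Ifngr1 and Ifngr2 at 0.12 and 0.04, Stat3 at 0.08 and Irf1, a factor induced by interferon gamma, at -0.01. Irf3, Irf7, Irf1, Irf9, Stat3 and Ifnar2 each share some exon bases with another gene, and without a known strand setting those reads cannot be told apart.

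**Figure D4:**
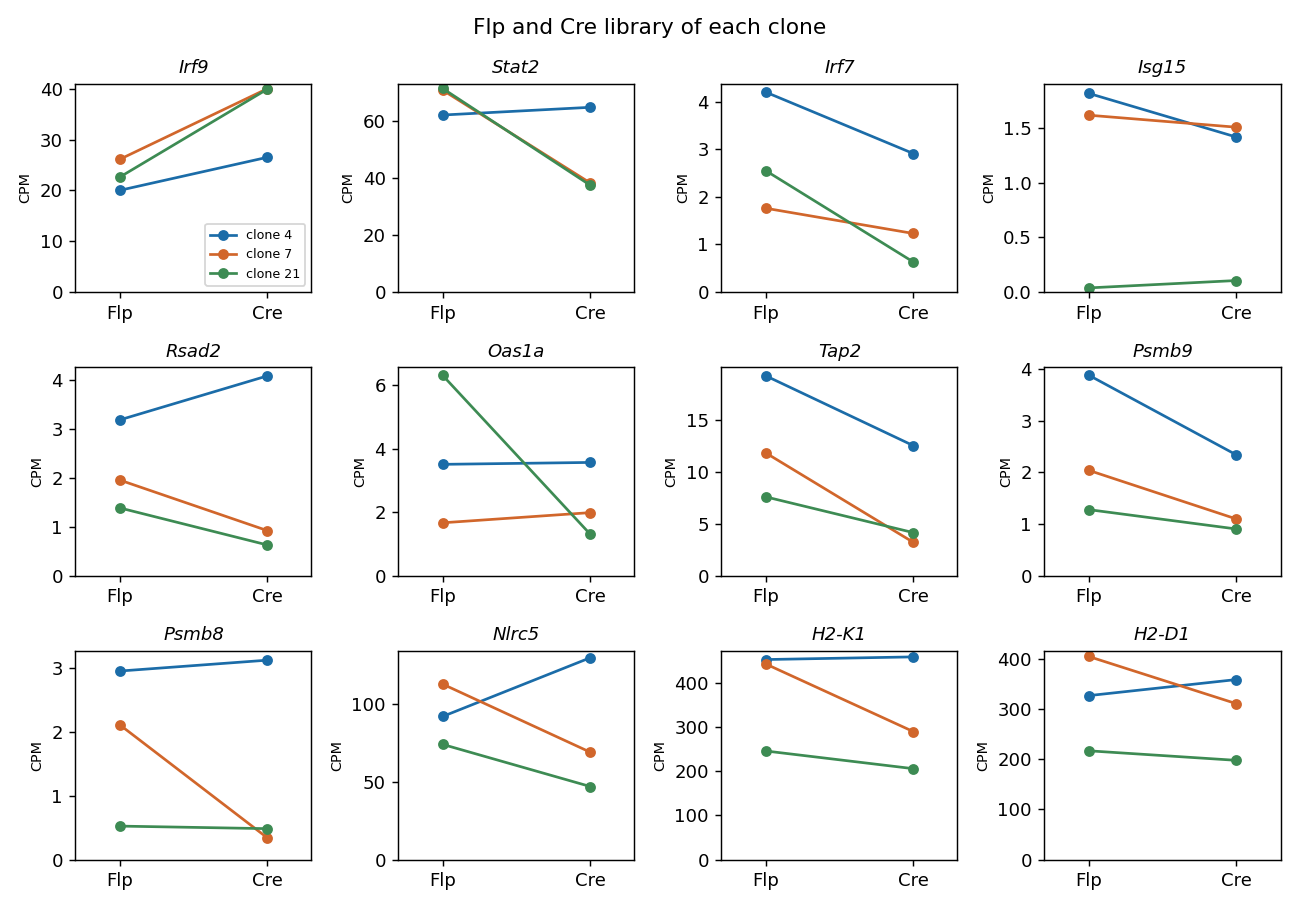
CPM of 12 genes in the Flp and Cre library of each clone (linear axes from 0; lines join the libraries of a clone and carry no error). Stat2 is lower in Cre in clones 7 and 21 and level in clone 4, Isg15 is near 0 in both libraries of clone 21, and Tap2 and Psmb9 are lower in Cre in each clone.

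Of the 17 interferon targets, 13 passed the low-count filter and none had an unadjusted edgeR p under 0.05 between Cre and Flp. Ifit2, an antiviral RNA-binding protein, was the target with the higher value in Cre of all 3 clones, at a log2 fold change of 0.30 (SE 0.17), or 0.14 without clone 21. Rsad2 (viperin, chromosome 12, 26442746 to 26456452), which makes an antiviral nucleotide, was at 4.09, 0.926 and 0.632 CPM in Cre and 3.19, 1.96 and 1.39 CPM in Flp of clones 4, 7 and 21. Clone 4 was the highest in both groups, and Cre was above Flp in clone 4 and below it in clones 7 and 21. Its log2 fold change was -0.59 (SE 0.43), or -1.11 without clone 4, -0.33 without clone 7 and -0.34 without clone 21. Oas1a (chromosome 5, 120896256 to 120907521), an enzyme that activates RNase L, was at 3.57, 1.99 and 1.31 CPM in Cre and 3.51, 1.67 and 6.31 CPM in Flp. The Flp library of clone 21 stood alone: without that clone the log2 fold change was 0.13, against -0.64 (SE 0.58) with it.

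Bst2 (tetherin, chromosome 8, 71534255 to 71537456) had the highest level per length of the targets, although Rnf213, with far longer exons, had the higher CPM. Bst2 was at 70.1, 78.5 and 52.2 CPM in Cre and 82.6, 55.5 and 59.9 CPM in Flp of clones 4, 7 and 21. The groups overlapped fully, and the log2 fold change was 0.02 (SE 0.18). Ifit3 (chromosome 19, 34583531 to 34588731) was at 0.521, 0.514 and 0.485 CPM in Cre and 0.0808, 0.547 and 0.375 CPM in Flp. Its log2 fold change of 0.73 (SE 0.64) rests on Flp clone 4 with 2 reads, and in the other 5 libraries it had 10 to 23 reads; without clone 4 the value was 0.13. Ifit1 had 28 reads in all, Ifi44 had 12, Mx2 had 6 and Mx1 had 0, and these 4 genes did not pass the filter. Mx1 encodes an antiviral GTPase that many laboratory mouse strains carry as a defective allele. Ifit1, Ifit2 and Ifit3, the Oas genes and Mx1 and Mx2 have close relatives in the genome, so reads shared with a copy may be counted for either or for none.

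The remaining 7 tested targets had values between -0.24 and 0.09. They were Rnf213, a giant ubiquitin ligase, at -0.11; Parp14, a mono-ADP-ribosyltransferase, at -0.19; Parp9 and Dtx3l, which form a complex and whose exons overlap, at 0.09 and 0.01; Ifi35 at -0.24; Oasl2 at 0.04; and Usp18, the protease that removes ISG15 from proteins, at -0.09.

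Tap2 (ENSMUSG00000024339, chromosome 17, 34203527 to 34216321), a chain of the peptide transporter that loads class I molecules, was the member with the most negative value. It was at 12.5, 3.22 and 4.15 CPM in Cre and 19.2, 11.8 and 7.58 CPM in Flp of clones 4, 7 and 21. Cre was the lower in each clone, most so in clone 7, yet the Cre library of clone 4 lay above the Flp libraries of clones 7 and 21. The Cre group averaged 6.64 ± 5.13 CPM and the Flp group 12.9 ± 5.87 CPM (SD, n = 3), and the clone ratios were -0.61, -1.86 and -0.86. The fitted log2 fold change of -1.11 (SE 0.30) had an edgeR adjusted p of 0.631. Without clone 7 it was -0.74, with an edgeR adjusted p of 0.814.

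Tap2 was the 1 member called in another fit. DESeq2 with the clone block gave it an adjusted p of 0.0494, in a test that called 1.44% of genes. The authors' deposited table listed it at a log2 fold change of -0.69 with an adjusted p of 0.0407, among 1.37% of genes called and as the only one of 33 members with an adjusted p. With edgeR and no filter on low counts 0 of 38 members were called, against 0.792% of genes, and the adjusted p of Tap2 was 0.0726. Over all fits run here its adjusted p ranged from 0.0494 to 1. Exons of Tap2 overlap Gm15821 and the antisense gene Gm20496 over 698 of 3781 bases. Its mean in the authors' deposited table, 503 normalized counts, was 1.53 times the mean deposited count of 329; the cause was not tested.

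With all clones the fitted values of the 8 antigen presentation genes were all below 0, as were 49.3% of those of all genes. All 8 stayed below 0 without clone 4 (median -0.56) and without clone 21 (median -0.29), but not without clone 7. All but Nlrc5 lie between 33915899 and 35267499 on chromosome 17, and Psmb9 and Tap1 share exon bases. The 8 values may therefore not be independent of each other. Without clone 7, 5 of the 8 were below 0, Psmb8 and H2-D1 were at 0.00 and Tap1 was at 0.17, and the median was -0.08 instead of -0.29. Medians of the clone ratios over the 8 genes were 0.05, -0.67 and -0.20 in clones 4, 7 and 21. The immunoproteasome subunit Psmb9 (chromosome 17, 34181987 to 34187764) was at 2.34, 1.10 and 0.906 CPM in Cre and 3.88, 2.04 and 1.28 CPM in Flp. Cre was the lower in each clone, and the order of the clones was the same in both groups. Its log2 fold change of -0.71 (SE 0.32) had an edgeR adjusted p of 0.759. Psmb8 (chromosome 17, 34197721 to 34201454), another such subunit, was at 3.12, 0.343 and 0.485 CPM in Cre and 2.95, 2.11 and 0.525 CPM in Flp. Its reads were few, with 10 in Cre of clone 7 and 23 and 14 in Cre and Flp of clone 21. Here the libraries of clones 4 and 21 were close to their partners and clone 7 alone was apart, so that the log2 fold change of -0.80 (SE 0.62) was 0.00 without clone 7 and -1.38 without clone 4.

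Nlrc5 (chromosome 8, 94434356 to 94527272), the transactivator of class I genes, was at 130, 69.2 and 47.1 CPM in Cre and 92.2, 113 and 74.2 CPM in Flp of clones 4, 7 and 21. Cre was above Flp in clone 4 and below it in the other clones, and the log2 fold change was -0.29 (SE 0.25). It was -0.68 without clone 4, -0.08 without clone 7 and -0.11 without clone 21. Its class I targets were the most abundant members. H2-K1 (chromosome 17, 33996017 to 34000347) was at 459, 290 and 206 CPM in Cre and 453, 443 and 246 CPM in Flp. Clone 21 was low in both groups, and the Flp library of clone 7 sat with clone 4. H2-D1 (chromosome 17, 35262730 to 35267499) was at 359, 311 and 198 CPM in Cre and 327, 405 and 217 CPM in Flp, again with clone 21 the lowest in each group. Their log2 fold changes were -0.28 (SE 0.15) and -0.13 (SE 0.13), and without clone 7 they were -0.12 and 0.00. Without clone 4 that of H2-K1 was -0.43. H2-D1 had a mean of 2790 normalized counts in the authors' deposited table, 0.262 times its mean deposited count, and class I genes share much of their sequence, so reads of either may have been split among copies. Tapbp, which bridges the transporter and class I molecules, had the lower value in Cre of every clone, at -0.16 (SE 0.11) and at -0.08 without clone 7, and Tap1, the partner of Tap2, was at -0.10 with clone ratios of 0.10, -0.63 and 0.24.

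A further comparison asked whether the clones differed from each other, with the Cre and Flp libraries of a clone as its only repeats. At an unadjusted edgeR p under 0.05, 7 of 35 members differed between clones, against a background of 8% of all genes. They were Isg15, Rsad2, Psmb8, Psmb9, Tap2, H2-K1 and H2-D1, which is 5 of the 8 antigen presentation genes and 2 of the 13 tested targets. Those 5 all lie in the stretch of chromosome 17 given above, so they may not be independent of each other. After adjustment edgeR called 0 members and 0.00651% of all genes. The DESeq2 likelihood ratio test called 4 members, Isg15, Tap2, H2-K1 and H2-D1, against 2.86% of genes, and edgeR without a filter called the same 4 and Psmb8, against 1.83%.

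Isg15 (ENSMUSG00000035692, chromosome 4, 156199424 to 156200818), a ubiquitin-like modifier and a classic interferon target, was the most uneven of the tested members over the clones. The Cre and Flp libraries held 60 and 45 reads of it for clone 4, 44 and 65 for clone 7, and only 5 and 1 for clone 21. As levels, these were 1.42 and 1.82 CPM, 1.51 and 1.62 CPM, and 0.105 and 0.0375 CPM. Both libraries of clone 21 were thus near the limit of detection, and Cre and Flp did not separate (log2 fold change -0.02, SE 0.52). The adjusted p of the clone difference was 0.264 with edgeR, 0.00194 with DESeq2 and 0.00136 with edgeR without a filter, and without clone 21 it was 1 with edgeR. Among the other targets with an ISRE core, Rsad2 and Bst2 also had their lowest clone mean in clone 21. Those means were 3.64, 1.44 and 1.01 CPM and 76.3, 67.0 and 56.0 CPM in clones 4, 7 and 21. Ifit1 and Ifit3, with few reads, had clone means of 0.0946, 0.185 and 0.082 CPM and of 0.301, 0.531 and 0.43 CPM. Oas1a had its highest level in Flp of clone 21.

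The 8 antigen presentation members had their highest clone mean in clone 4 or 7 and their lowest in clone 21. The share of all genes that were lowest in clone 21 was not worked out. All but Nlrc5 lie in the stretch of chromosome 17 given above, so they may not be independent of each other. Other genes of the process were divided. B2m, Tapbpl, H2-T23 and H2-Q4 were also lowest in clone 21. Erap1, Psme1, Psme2, Pdia3, Calr, Canx and Rfx5 were lowest in clone 4, as with Pdia3 at clone means of 947, 974 and 1040 CPM. For Psme1 and Psme2, which lie beside Irf9, clone 4 was the lowest in Cre only. Their Flp levels were 31.6, 33.6 and 31.4 CPM and 7.75, 7.03 and 7.47 CPM in clones 4, 7 and 21. Psmb10 and H2-M3 were lowest in clone 7, the latter with clone means of 9.74, 3.83 and 5.10 CPM. H2-K1 had clone means of 456, 367 and 226 CPM and H2-D1 of 343, 358 and 208 CPM in clones 4, 7 and 21. The DESeq2 adjusted p of the clone difference was 0.000837 for H2-K1 and 0.00636 for H2-D1, and the edgeR ones were 0.353 and 0.41. Tap2, with clone means of 15.9, 7.53 and 5.87 CPM, had a DESeq2 adjusted p of 0.0091 and an edgeR one of 0.475. Without clone 21 the edgeR adjusted p was 1 for both class I genes and 0.563 for Tap2. Clone means of Psmb9 were 3.11, 1.57 and 1.09 CPM, those of Psmb8 were 3.04, 1.23 and 0.505 CPM, and those of Rsad2 were 3.64, 1.44 and 1.01 CPM. In bulk RNA a smaller share of cells that express a gene and less RNA per cell cannot be told apart.

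Of 112 further genes of the pathway, 75 passed the filter and 0 were called by edgeR. At an unadjusted p under 0.05 there were 4 with a higher and 4 with a lower value in Cre, against 3.54% and 3.28% of all genes, so these counts are near the background. The median log2 fold change was -0.04, and the genes are described by their values only. Among the lower ones, Ifi30, a lysosomal thiol reductase of antigen processing, was at 113, 115 and 101 CPM in Cre and 142, 143 and 128 CPM in Flp of clones 4, 7 and 21. The groups did not overlap, and the clone ratios of -0.33, -0.31 and -0.33 gave a log2 fold change of -0.32 (SE 0.09) with an edgeR adjusted p of 0.635. Parp12, an antiviral ADP-ribosyltransferase, was at 21.6, 13.9 and 12.7 CPM in Cre and 23.9, 29.5 and 25.6 CPM in Flp, with clone ratios of -0.14, -1.09 and -1.0 and a fitted value of -0.75 (SE 0.23). H2-M3, a nonclassical class I gene, was at -0.85 (SE 0.24) with ratios of -0.60, -0.86 and -1.08. Among the higher ones, beside Psme1 and Psme2, Irf4 was at 1.43 (SE 0.54) with ratios of 2.66, 1.27 and 0.33, and Ikbke, a kinase of IRF3 and IRF7, at 1.06 (SE 0.40) with ratios of 0.25, 0.70 and 2.29. Cmpk2, a mitochondrial nucleotide kinase next to Rsad2, was the remaining gene with a lower value, at -1.17.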

How the data were processed

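Members and gene lists were chosen with earlier results of these data known. The deposited files hold whole-number raw counts for each library, by Ensembl gene, and the authors' comparison table by DESeq2, which gives a mean normalized count as signal, a p-value before and after adjustment, the log2 fold change, its error and a Wald score, per the file headers. Per the submitters' processing notes, tools were STAR 2.5.2b-2, Trim Galore 0.4.3.0, featureCounts 1.6.0.3, FastQC 0.67 and DESeq2 2.11.40.1, and builds mm10 and GRCm38. Strand setting and release of the annotation: not given in the sources used here. Positive values in that table were taken to mean a higher level in Cre: 33 of 34 members then had the sign computed here. Its log2 fold changes were smaller in size for members with few reads, such as Psmb8 (-0.17 against -0.80 here) and Irf7 (-0.35 against -0.99). For others, such as Tapbp (-0.16 in both), they were alike. Sizes there and here are therefore not like for like, and the cause was not tested.

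The counts were fitted (R 4.3.3) with edgeR 4.0.16 (filterByExpr, TMM, quasi-likelihood test, clone as a block, 2 residual degrees of freedom, Benjamini-Hochberg adjustment over all genes, threshold 0.05), limma 3.58.1 and DESeq2 1.42.0. Standard errors came from the F statistic, and clone ratios use a prior count of 2. Symbols and coordinates came from GENCODE M21 on GRCm38, with an entry for 49412 of 49671 identifiers; Mb21d1 was matched by a RefSeq synonym. The clone block follows the series design: deviations from the mean of a group had correlations of 0.20, 0.11 and 0.30 within clones 4, 7 and 21 and of -0.27 to 0.02 between clones across groups. No library pair was alike within sampling noise (chi-square per degree of freedom at least 38.3). Levels in every library were given for members with an unadjusted p under 0.05 in either test, an absolute log2 fold change of at least 0.5, clone ratios at least 1 apart, or the highest level per length of their class. The edgeR test was also run on simulated data (15355 genes, of which 50 changed per fold). There it recovered 12%, 50%, 94% and 98% of 1.5-, 2-, 4- and 8-fold changes between Cre and Flp with 10 false calls. Apart from genes changed on purpose between clones, each simulated gene had the same baseline in all clones and the same response to Cre. No further low-count filter was applied there. Whether the recovered shares hold for the deposited libraries, where clones differ, was not tested. In those libraries edgeR called 0 genes between Cre and Flp, with fitted log2 fold changes from -4.3 to 3.43 and a smallest adjusted p of 0.201. Alternatives were fits without the block, DESeq2, limma-voom, 3 normalizations, 2 filters and leaving out each clone. Figures were drawn with matplotlib 3.10.9.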

Additional observations from a re-analysis of the deposited data

How the results depend on the processing

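With 3 clone pairs and 2 residual degrees of freedom, a filter or tool decides how many genes pass. Over all genes Cre against Flp gave 0 calls with edgeR (1047 at an unadjusted p under 0.05), 196 with DESeq2 and the clone block, 14 with DESeq2 without the block and 224 with edgeR without a filter. Members called were 0, and 1 (Tap2, -1.11) with DESeq2 and the block. Without the replicate block edgeR called 0 members, with a median of -0.10. Between clones edgeR called 1 gene, DESeq2 414, limma-voom 0, edgeR without a filter 519 and with a mean of at least 1 CPM 0, and 0 to 4 with each clone left out. Members called between clones were 4 with DESeq2 and 5 without a filter. The median over members was -0.04 without a filter and -0.07 to 0.00 with each clone left out. Values near 0 changed sign: Oasl2 was -0.04 and -0.05 without the block (edgeR, DESeq2) and -0.01 with limma-voom, Isg15 0.05 with DESeq2 and the block and 0.01 with total counts, and Irf1 0.01 with total counts. With each clone left out, values ran from -0.04 to 0.02 for Irf1, -0.23 to 0.22 for Isg15, -0.28 to 0.05 for Usp18, -0.16 to 0.28 for Oasl2, -0.22 to 0.15 for Bst2, -0.03 to 0.08 for Dtx3l, -0.27 to 0.17 for Tap1, -0.26 to 0.00 for H2-D1, -0.14 to 0.34 for Ifngr1, -0.09 to 0.15 for Ifngr2, -1.11 to 0.13 for Oas1a and -0.32 to 0.05 for Parp14. The cause was not tested. Of the values of single members under the alternatives, 397 kept their direction and side of the threshold, 21 changed sign and 1 passed it. Depth limits Ifit1, Ifi44, Mx1, Mx2, Ifit3 and Isg15 in clone 21, which had few or no reads. It also limits Psmb8, with 10 reads in Cre of clone 7 and 23 and 14 in Cre and Flp of clone 21.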
